A study of Rattus norvegicus with 6 samples.

Results

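Families 1 to 4 of the cytochrome P450 enzymes were examined in the lung RNA of rats with bleomycin-induced pulmonary fibrosis (PF) and of control rats. Every gene name of the linear RNA table that begins with Cyp, a family number from 1 to 4, a subfamily letter and a gene number was taken as a member. This gave 40 of 21655 gene names, carried by 82 of 70376 transcript rows. Family 1 had 3 members, family 2 had 22, family 3 had 2 and family 4 had 13, and they fell into 21 subfamilies on 9 chromosomes. Sprague–Dawley rats, 7 weeks old, received either a single dose of bleomycin at 7 mg/kg into the trachea (model, n = 3) or an equal volume of saline (control, n = 3), and lungs were taken on day 28. One rRNA-depleted library was sequenced per rat, and the unit was FPKM, which is corrected for transcript length and library size, so that levels of different genes can be set side by side.

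Cytochromes P450 are heme enzymes of the endoplasmic reticulum that insert an oxygen atom into their substrates, with electrons passed to them by the reductase Por. Families 1 to 3 act mainly on drugs, pollutants and steroids, and family 4 mainly on fatty acids and the eicosanoids made from arachidonic acid. In rodent lung many of these enzymes are known from club cells of the airways and from alveolar type 2 cells, while others are enzymes of the liver, kidney or gut.

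The libraries carried the markers of lung. In all 6 samples the club cell secretoglobin Scgb1a1 lay between 4065 and 7693 FPKM and the alveolar type 2 surfactant gene Sftpc between 2410 and 4146 FPKM, and of the 5 hepatocyte genes listed, Ttr did not exceed 0.124 FPKM and Apoa1 did not exceed 0.184 FPKM. Transferrin (Tf), which other cells also make, had 10.2 to 28.3 FPKM, Serpina1 had 2.18 to 4.10, and the hepatocyte list summed to 12.9 to 31.9 FPKM. From the deposited coverage, between 35778631 and 41112682 reads per library were estimated to lie on the listed transcripts. Of the 40 members, 32 passed the filter, which asked for a value above 0 in 3 or more samples, and were tested together with all other gene names that passed it, 19645 in total. The other 8 members did not exceed 0.0689 FPKM in any sample. Because the libraries are from whole lung, fewer cells of a type and less RNA per cell cannot be told apart.

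Promoter sequences were shown for the members on which the results turn, where the reference held them. RefSeq promoters of the GRCr8 build were found for 34 of the 40 members, and those of Cyp1a1, Cyp2ab1, Cyp4a1, Cyp4f17, Cyp4f4 and Cyp4v3 were not among them. The 250 bases before the gene start are given below for the most abundant member, Cyp4b1 (chr5:134393117-134393366 on the minus strand), for the other measured gene of family 1, Cyp1b1 (chr6:21094315-21094564 on the plus strand), and for the 2 airway genes that were high together in 1 model sample, Cyp2a3 (chr1:91299334-91299583 on the plus strand) and Cyp2f4 (chr1:91543518-91543767 on the plus strand). Capitals mark the core of the site bound by the aryl hydrocarbon receptor (GCGTG on either strand) or the TATA box (TATAAA on the strand shown).
Cyp4b1: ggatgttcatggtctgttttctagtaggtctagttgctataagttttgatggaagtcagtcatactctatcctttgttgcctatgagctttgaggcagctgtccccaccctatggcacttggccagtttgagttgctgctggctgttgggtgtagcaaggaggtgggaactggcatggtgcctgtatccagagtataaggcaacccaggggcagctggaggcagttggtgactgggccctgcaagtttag
Cyp1b1: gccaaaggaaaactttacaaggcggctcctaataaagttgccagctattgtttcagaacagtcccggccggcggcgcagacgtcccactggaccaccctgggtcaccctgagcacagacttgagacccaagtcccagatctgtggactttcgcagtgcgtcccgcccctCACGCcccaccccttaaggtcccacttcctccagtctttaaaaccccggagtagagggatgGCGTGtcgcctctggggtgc
Cyp2a3: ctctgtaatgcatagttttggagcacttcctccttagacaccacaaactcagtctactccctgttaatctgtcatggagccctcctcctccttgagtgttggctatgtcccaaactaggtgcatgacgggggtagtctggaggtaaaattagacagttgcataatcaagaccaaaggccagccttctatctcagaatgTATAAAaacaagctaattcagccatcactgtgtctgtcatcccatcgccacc
Cyp2f4: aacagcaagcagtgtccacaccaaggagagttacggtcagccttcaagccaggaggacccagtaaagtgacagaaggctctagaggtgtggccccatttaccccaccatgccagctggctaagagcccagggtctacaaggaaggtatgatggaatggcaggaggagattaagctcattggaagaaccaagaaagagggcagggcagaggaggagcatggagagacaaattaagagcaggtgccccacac
The Cyp1b1 promoter held GCGTG 2 times, 20 and 81 bases before the start, and the Cyp2a3 promoter held TATAAA 52 bases before it. Neither motif stood in these windows of Cyp2f4 and Cyp4b1. Over all members with a promoter, GCGTG was found in 10 of 34 (29.4%), against 25.9% of 33469 RefSeq promoters of the same length. TATAAA, sought on a single strand only, was found in 5 of 34 (14.7%), against 8.06%. The FOXA core TGTTTAC, on either strand, was found in 2 of 34 (5.88%), against 3.21%. A member was counted if any of its promoters matched, whereas the background was counted per promoter, so the shares are not strictly alike. These are matches of letters and not sites of binding.

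In control lung the members spanned a wide range, and 3 gene names stood above the rest in summed FPKM. Cyp4b1, an enzyme of fatty acids and furan toxins that is known from lung, had 73.8, 74.4 and 86.4 FPKM in the control samples (78.2 ± 7.1, SD, n = 3). Cyp2b2, of the barbiturate-inducible subfamily, had 65.9, 57.0 and 61.2 FPKM (61.3 ± 4.4). Part of this lies on a fragment outside the gene. Spliced transcripts that match the gene or share its junctions had 36.8, 27.7 and 38.6 FPKM (34.4 ± 5.9). Some of these are assembled isoforms that begin far before the annotated start, and the annotated transcript had 3.49, 2.57 and 0.289 FPKM. Cyp1a1, which oxidises polycyclic aromatic hydrocarbons and is the classical target of the aryl hydrocarbon receptor, had 21.4, 83.0 and 62.1 FPKM (55.5 ± 31). Of this, transcripts with the annotated start had 4.46, 21.1 and 30.8 FPKM, and the rest lay on assembled isoforms that begin 318 kb before it. The ranges of Cyp4b1 and Cyp2b2 did not overlap, whereas that of the summed Cyp1a1 contained that of Cyp2b2, with or without the fragment.

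Below them, Cyp2f4, which activates naphthalene in club cells, had a control mean of 14.6 ± 1.9 FPKM. Cyp4v3, a fatty acid hydroxylase, had 11.2 ± 1.6 FPKM, and Cyp2s1, an epithelial enzyme found outside the liver, had 10.1 ± 1.9 FPKM. These were the 6 members with a control mean of at least 10 FPKM. Along the order of control means, neighbouring genes were separated without overlap of their control values at only 3 places, between Cyp4b1 and Cyp2b2, between Cyp1a1 and Cyp2f4, and between Cyp4f5 and Cyp2d3.

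**Figure D1:**
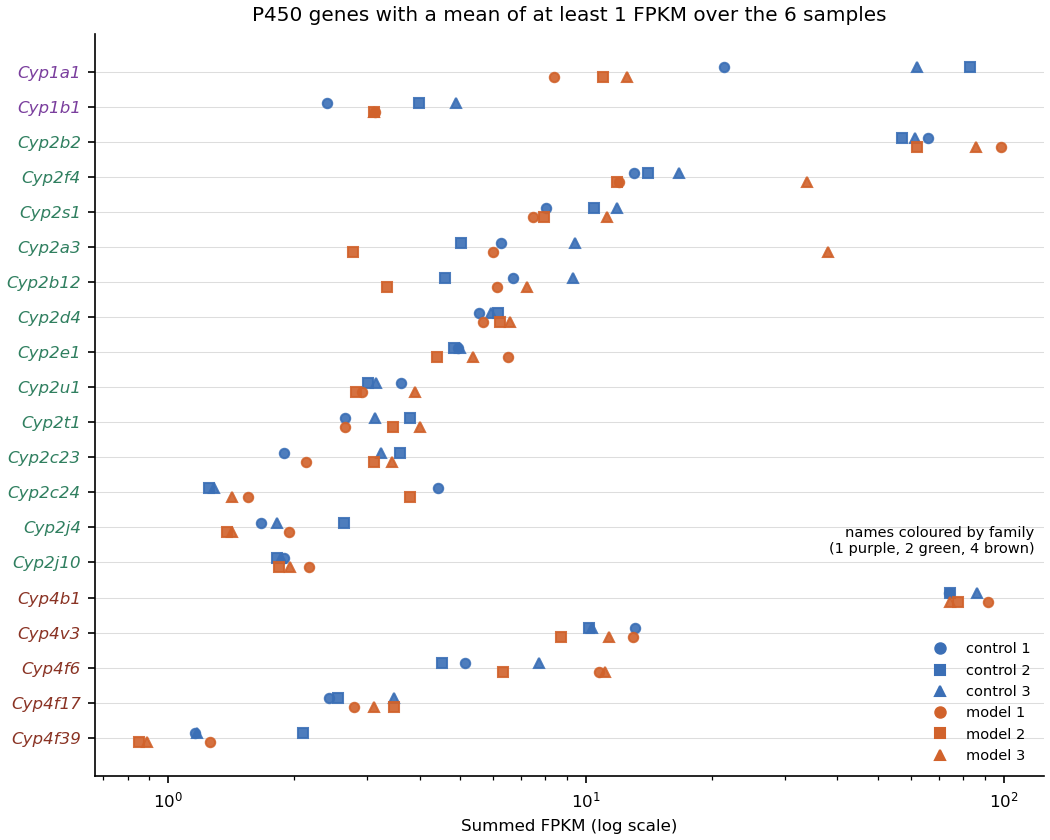
Summed FPKM on a log axis of the 20 members with a mean of at least 1 FPKM over the 6 samples, by family and then by control mean. Each point is a sample (blue control, orange model). The 3 model samples of Cyp1a1 lie between 8.38 and 12.6, below its controls, and model replicate 3 stands at 37.9 for Cyp2a3.

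The middle range was made of a further 15 members with a control mean of at least 1 FPKM. Cyp2a3, which activates tobacco nitrosamines, had 6.91 ± 2.3 FPKM in control lung, Cyp2d4 had 5.88 ± 0.30, Cyp4f6 had 5.80 ± 1.7 and Cyp2e1, the ethanol-inducible enzyme of small solvents, had 4.92 ± 0.075. Cyp1b1, an enzyme of aromatic hydrocarbons and oestrogens, had 3.75 ± 1.3 FPKM. Cyp2u1 had 3.26 ± 0.32, Cyp2t1 had 3.20 ± 0.58, Cyp2c23, an epoxygenase of arachidonic acid, had 2.90 ± 0.89 and Cyp4f17 had 2.82 ± 0.57 FPKM. The epoxygenase Cyp2j4 had 2.05 ± 0.52 FPKM, Cyp2j10 had 1.86 ± 0.037 and Cyp4f39 had 1.48 ± 0.54. Cyp4f5 was the lowest of them at 1.03 ± 0.16 FPKM. The 2 remaining names, Cyp2b12 (6.86 ± 2.4) and Cyp2c24 (2.32 ± 1.8), rested only on unspliced fragments inside introns, so that their values do not show mature mRNA. Such fragments also enter Cyp2j4 and Cyp4f39, whose own transcripts had control means of 1.10 ± 0.22 and 0.358 ± 0.093 FPKM. The level of Cyp2c23 lay nearly all on an assembled isoform, with a control mean of 2.88 FPKM, and not on its annotated transcript. Part of the level of Cyp2d4 also lay on an assembled isoform, with a control mean of 2.79 FPKM.

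The remaining 19 members had control means under 1 FPKM. Family 3, the steroid and drug oxidases that dominate in liver and gut, was carried by Cyp3a9 at 0.588 ± 0.26 FPKM and Cyp3a62 at 0.0143 ± 0.016. Of the fatty acid hydroxylases of subfamily 4a, Cyp4a1 had 0.428 ± 0.12 FPKM. The vitamin D hydroxylase Cyp2r1 had 0.592 ± 0.033, and the olfactory Cyp2g1 had 0.0375 ± 0.035. Cyp2ab1 had 0.134 ± 0.044. In total 11 members had a control mean under 0.1 FPKM. Cyp1a2, Cyp2b15, the male-specific liver enzyme Cyp2c11, Cyp2w1, Cyp4a8 and Cyp4f40 were listed at 0 in every control sample. In model samples Cyp3a9 had 0.677 ± 0.15 FPKM, Cyp4a1 had 0.354 ± 0.036 and Cyp2ab1 had 0.0920 ± 0.082. There Cyp3a62 reached at most 0.0945 FPKM, Cyp2w1 at most 0.0658 and Cyp4a8 at most 0.0343, levels at which few reads are involved.

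The members lie largely in clusters, and levels differed within a cluster. Coordinates are those of the deposited table, whose genome build is not given in the sources used here. On chromosome 1, 7 family 2 genes lie between positions 82595211 and 83969559, with control means from 0.0375 FPKM for Cyp2g1 to 61.3 for Cyp2b2. On chromosome 5, Cyp4b1 lies beside Cyp4a8, Cyp4a3 and Cyp4a1, between positions 133978954 and 134526089. There Cyp4b1 had 78.2 FPKM and no gene of subfamily 4a had more than 0.553 in any control sample. On chromosome 8, between positions 62451329 and 62478147, Cyp1a2 was listed at 0 beside Cyp1a1 at 55.5 FPKM. On chromosome 7, the 7 genes of subfamily 4f between positions 14441476 and 15225410 had control means of at most 5.80 FPKM, for Cyp4f6. Close copies within these clusters, as in subfamilies 2b, 2c, 2d, 4a and 4f, can share reads, and their values are uncertain in that respect.

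Summed by family, families 2 and 4 held most of the P450 RNA of control lung. Family 2 summed to 128.0, 120.0 and 135.6 FPKM in the control samples and to 156.2, 116.2 and 205.5 in the model samples, so that the groups overlapped. Family 4 summed to 97.9, 96.2 and 111.3 FPKM in control and to 122.5, 99.005 and 104.1 in model samples, which also overlapped. Family 1 summed to 23.8, 87.0 and 67.0 FPKM in control and to 11.5, 14.1 and 15.7 in model samples, and every model sample lay below every control sample. The ratio of group means was 0.232 for family 1, 1.25 for family 2 and 1.07 for family 4. Family 3 stayed under 0.9 FPKM in each sample, with means of 0.602 ± 0.28 in control and 0.723 ± 0.10 in model samples. No test was made on the sums, which include the unspliced fragments. With only transcripts that match the gene or share its junctions, family 2 summed to 87.5, 83.0 and 101.8 FPKM in control samples. Family 4 then summed to 95.3, 92.5 and 107.55 FPKM, above family 2 in each control sample, whereas with fragments family 2 was the higher. All members together made up between 0.0434% and 0.0639% of the FPKM of a library, and between 34.1% and 46.4% of that FPKM was on genes named after Rfam families.

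**Figure D2:**
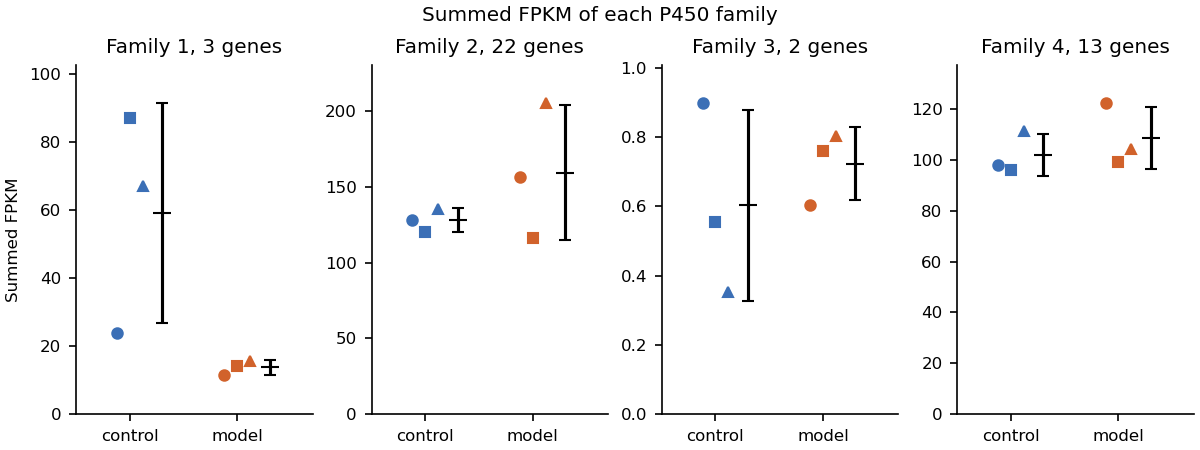
Summed FPKM per family in each sample (blue control, orange model; circle, square and triangle are replicates 1 to 3), with the mean and SD as black bars. Axes differ in scale and start at 0. Only in the panel of family 1 are the groups apart, with a control mean of 59.2 and a model mean of 13.8.

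Model and control samples were then compared gene by gene, which addresses whether the P450 genes of lung differ in the fibrotic organ. Cyp1a1 was the member that differed most. It had 21.4, 83.0 and 62.1 FPKM in control and 8.38, 10.97 and 12.6 FPKM in model samples, that is, a mean of 55.5 ± 31 against 10.6 ± 2.1 (SD, n = 3 each). All 3 model values lay below all 3 control values, and the controls varied among themselves more than the model samples did. The log2 ratio of the means was −2.38, or 0.192 of the control level. The difference in log2(FPKM + 1) was −2.09 ± 0.48 (SE, 95% confidence interval −3.24 to −0.94) with an unadjusted p of 0.0039 by limma. After Benjamini-Hochberg adjustment over all 19645 gene names the p by limma was 0.933, so the difference did not hold against the number of tests. An exact two-sided permutation test gave p = 0.1, the smallest that 3 against 3 allow.

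By the thresholds of the study on the unadjusted p (at most 0.05) and the absolute log2 ratio (at least 1), Cyp1a1 was the 1 member called of the 32 tested, and it was lower in the model. Of all gene names tested, 298 (1.52%) were called by this rule, 168 of them lower in the model (0.855%). By an unadjusted p of at most 0.05 alone, again 1 of 32 members was counted, against 4.91% of all gene names. By an adjusted p below 0.05 none of the 32 members was called with limma, and 2 of the 19645 gene names were (0.0102%). The groups did not overlap for 2 of the 32 members, Cyp1a1 and Cyp2d2, against 10.7% of all gene names. Cyp2d2 had 0.221, 0.104 and 0.107 FPKM in control and 0.0470, 0.0843 and 0.0965 in model samples. The 1 member is 3.12% and the 2 members are 6.25% of those tested, so that the counts stand near the background shares.

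**Figure D3:**
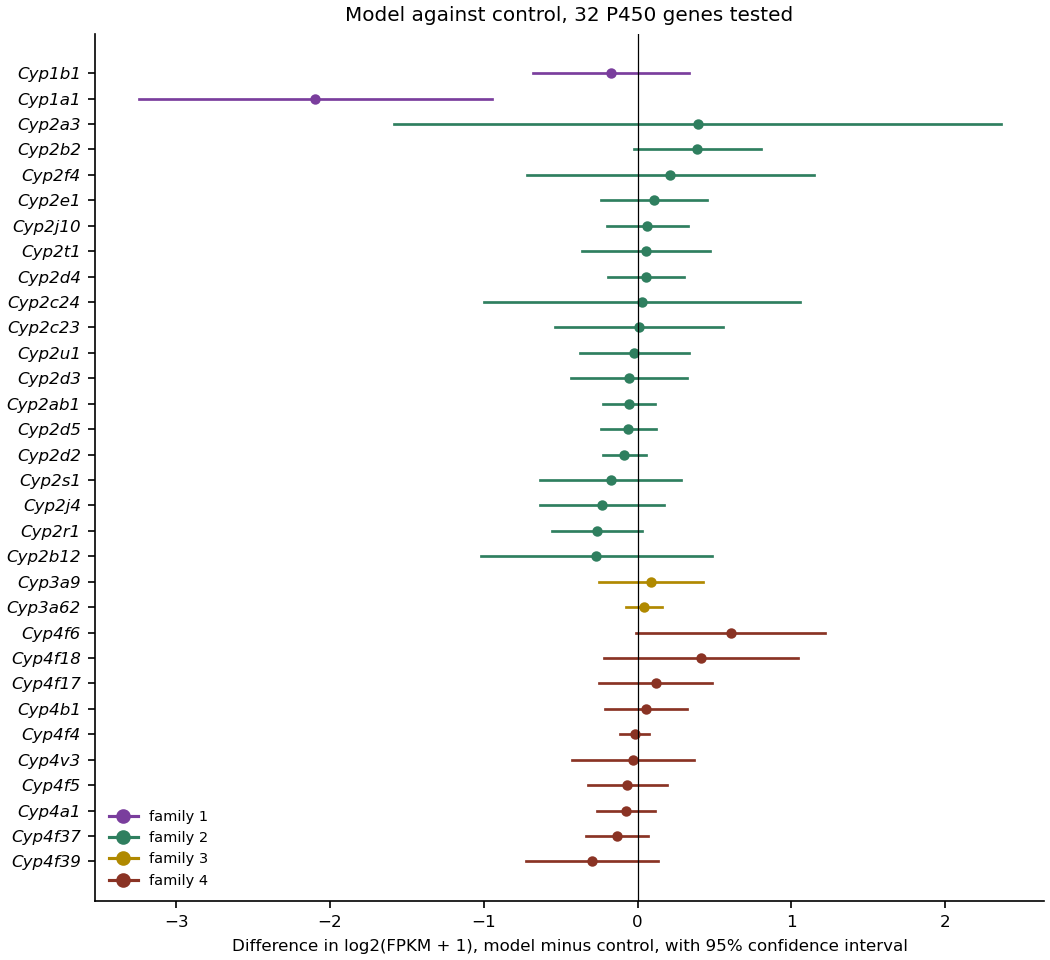
Difference in log2(FPKM + 1), model minus control, for the 32 tested members, with 95% confidence intervals from limma and colours by family. The interval of Cyp1a1, −3.24 to −0.94, lies below 0, and the intervals of the other 31 members include 0.

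The value of Cyp1a1 rested on 4 transcripts with 2 kinds of start. The annotated transcript ENSRNOT00000026473 and 1 assembled isoform begin at position 62472095 of chromosome 8. The other 2 assembled isoforms share its junctions but begin at position 62154412, 318 kb before, and end at the same position, 62478147. The transcripts with the distant start had 16.9, 61.9 and 31.3 FPKM in control and 1.62, 6.81 and 3.74 in model samples. Those with the annotated start had 4.46, 21.1 and 30.8 FPKM in control and 6.76, 4.16 and 8.83 in model samples. As listed, the groups were apart for the distant start and overlapped for the annotated start. The 4 transcripts have 7 exons each and lengths of 2635 to 2688 bases, so most of their sequence can be shared. How reads were divided between them is therefore uncertain, and so are the values per start and per transcript. The distant start carried between 50.4% and 79.1% of the gene's FPKM in control and between 19.4% and 62.1% in model samples, and these shares overlapped. The annotated transcript alone was listed at 0 in control replicate 1 and had 21.1 and 14.9 FPKM in the other controls, against 3.76, 1.73 and 5.65 in model samples. With annotated transcripts only, the difference for Cyp1a1 was −0.67 with an unadjusted p of 0.60 by limma, and the call was lost. Whether the distant exon belongs to the gene was not tested.

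**Figure D4:**
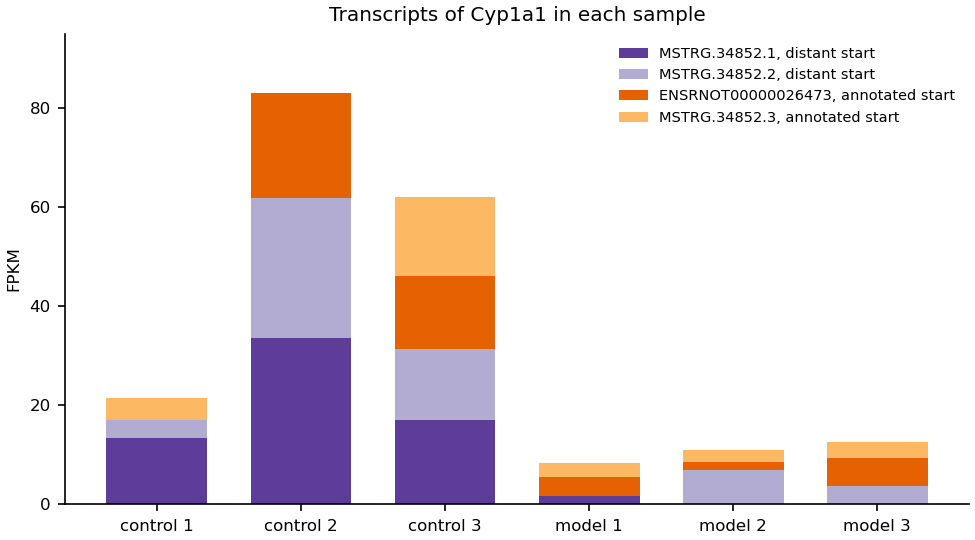
FPKM of the 4 transcripts listed for Cyp1a1, stacked per sample (purple shades distant start, orange shades annotated start). The purple part is 16.9 to 61.9 in the controls and 1.62 to 6.81 in the model samples, and the orange part of control replicate 1 is 4.46.

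The other members of family 1 were not called. Cyp1b1 had 2.40, 3.98 and 4.88 FPKM in control and 3.12, 3.11 and 3.11 in model samples. The model values lay inside the control range, and the difference was −0.17 (95% confidence interval −0.68 to 0.34) on the log2(FPKM + 1) scale. Cyp1a2, the liver enzyme of aromatic amines, was listed at 0 in 5 samples and at 0.00717 FPKM in model replicate 3. The aryl hydrocarbon receptor Ahr, which drives Cyp1a1 after binding a ligand, had 23.9, 23.2 and 27.5 FPKM in control and 21.6, 23.3 and 16.5 in model samples, with an overlap and an unadjusted p of 0.091 by limma (adjusted p 0.933). Scgb1a1, the marker of club cells in which Cyp1a1 and many P450s are known, had 4514, 5648 and 7693 FPKM in control and 4065, 4689 and 6140 in model samples, which overlapped.

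In family 2, the airway genes were set apart by 1 animal. Cyp2a3 had 6.28, 5.02 and 9.43 FPKM in control and 5.996, 2.78 and 37.9 in model samples. Cyp2f4 had 13.004, 14.1 and 16.7 FPKM in control and 12.01, 11.9 and 33.8 in model samples. For both genes model replicate 3 lay above all other samples, by 4.02 and 2.02 times the next highest, while model replicates 1 and 2 lay within or below the control range. The differences were 0.39 (95% confidence interval −1.58 to 2.36) for Cyp2a3 and 0.21 (−0.72 to 1.15) for Cyp2f4. Without model replicate 3 they were −0.58 and −0.26. The reductase Por was also highest in model replicate 3, with 49.3 FPKM against 34.1 to 37.8 in the other samples.

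Secreted products of the airway lining stood out in the same sample. Of the 6 club cell and mucus genes listed, the secretoglobin Scgb3a1 had 47.0 FPKM in model replicate 3 and at most 6.45 elsewhere, the mucin Muc5b 22.2 and at most 3.68, Bpifb1 40.6 and at most 12.1, and Bpifa1 95.8 and at most 0.135. Scgb1a1 and Scgb3a2, at 6140 and 191.0 FPKM in that sample, lay within the range of the others. The summed level of the list, which Scgb1a1 dominates, was 4623 to 7925 FPKM in control and 4170 to 6537 in model samples. Of the 5 ciliated cell genes listed, 2 were highest in model replicate 3 (Dnah5 and Tekt1), and their sum was 18.1 to 32.2 FPKM in control and 15.0 to 25.7 in model samples. The part of these airway genes in the values of Cyp2a3 and Cyp2f4 was not tested.

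**Figure D5:**
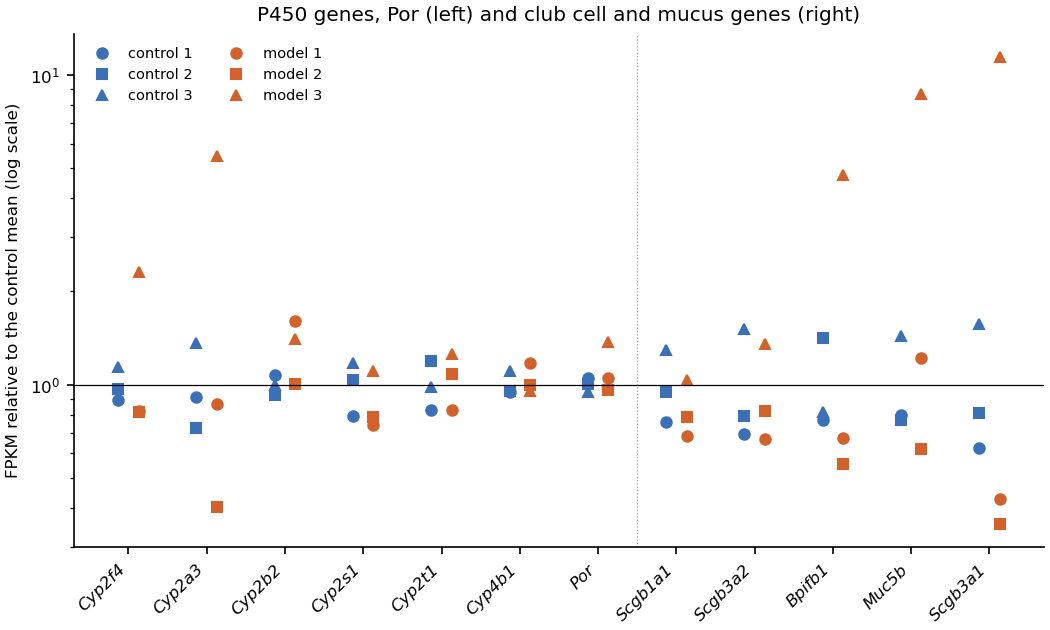
FPKM of P450 genes and Por (left of the dotted line) and of club cell and mucus genes (right) relative to the control mean of each gene, on a log axis, with 1 point per sample. Model replicate 3 (orange triangle) stands above all other samples for Cyp2f4, Cyp2a3, Por, Bpifb1, Muc5b and Scgb3a1, and within their range for Cyp2s1, Cyp4b1 and Scgb1a1.

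Cyp2b2 had 65.9, 57.0 and 61.2 FPKM in control and 98.3, 61.8 and 85.8 in model samples. Model replicate 2 fell among the controls and the other model samples lay above them. The difference was 0.39 (95% confidence interval −0.03 to 0.81) with an unadjusted p of 0.062 by limma. This level is a composite. Only 59.7% of it came from transcripts that match the gene or share its junctions, and the rest came from an unspliced fragment beyond the gene, at positions 83120633 to 83121804 of chromosome 1, with 22.6 to 36.7 FPKM per sample. The annotated transcript itself had at most 3.49 FPKM. Some assembled isoforms begin at positions 82790837 or 82790887, well before the annotated start at 83103925. MSTRG.1352.5, which begins at 82790887, had 18.8, 12.9 and 26.3 FPKM in control and 11.7, 0.827 and 34.8 in model samples. Whether the distant exon belongs to Cyp2b2 was not tested. Together the matching and junction-sharing transcripts had 36.8, 27.7 and 38.6 FPKM in control and 61.6, 37.7 and 54.4 in model samples. Model replicate 2 was again among the controls, and the difference was 0.55 with an unadjusted p of 0.036 by limma. With annotated transcripts only, the difference was −0.43 with an unadjusted p of 0.43 by limma. A further gene described as cytochrome P450 2B1, LOC108348266, is not a member by name and had 3.16, 8.06 and 7.96 FPKM in control and 4.89, 15.5 and 5.32 in model samples, and reads of such close copies may be divided between them.

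For Cyp2s1, Cyp2e1 and Cyp2d4 the groups overlapped in summed FPKM. Cyp2s1 had 8.03, 10.4 and 11.9 FPKM in control and 7.49, 7.92 and 11.2 in model samples. Cyp2e1 had 4.94, 4.84 and 4.98 FPKM in control and 6.498, 4.39 and 5.38 in model samples, with the controls inside the model range. Cyp2d4 had 5.56, 6.16 and 5.92 against 5.67, 6.23 and 6.57 FPKM. This sum joins 2 transcripts that went opposite ways. The annotated one had 2.49, 3.34 and 3.43 FPKM in control and 3.93, 3.95 and 4.08 in model samples. An assembled isoform of 2 exons had 3.07, 2.82 and 2.492 FPKM in control and 1.74, 2.28 and 2.485 in model samples. With annotated transcripts only, the difference was 0.30 with an unadjusted p of 0.074 by limma.

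The groups also overlapped for the epoxygenases Cyp2j4 and Cyp2c23 and for the other family 2 members given next. Cyp2j4 had 1.67, 2.64 and 1.83 FPKM in control and 1.95, 1.39 and 1.42 in model samples, but an intronic fragment makes up part of this. Without it the level was 1.10 ± 0.22 in control and 1.38 ± 0.25 in model samples, and the difference turned from −0.23 to 0.18. Cyp2c23 had control and model means of 2.90 ± 0.89 and 2.90 ± 0.67 FPKM. Nearly all of this lay on an assembled isoform of 5 exons, and the annotated transcript of 9 exons had at most 0.0445 FPKM. The means were 1.86 ± 0.037 and 1.99 ± 0.17 for Cyp2j10, 3.20 ± 0.58 and 3.37 ± 0.69 for Cyp2t1, and 3.26 ± 0.32 and 3.22 ± 0.60 for Cyp2u1. The intronic fragments named Cyp2b12 and Cyp2c24 had model means of 5.57 ± 2.0 and 2.26 ± 1.3 FPKM. Cyp2r1 had 0.555, 0.619 and 0.602 FPKM in control and 0.180, 0.593 and 0.239 in model samples, with an unadjusted p of 0.069 by limma. Over the 18 members of family 2 tested, 9 differences were above 0 and 9 below, with a median of −0.0047 on the log2(FPKM + 1) scale.

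In family 4, the abundant Cyp4b1 had 73.8, 74.4 and 86.4 FPKM in control and 91.7, 77.8 and 74.5 in model samples. The groups overlapped, and the difference of 0.054 (95% confidence interval −0.21 to 0.32) was smaller than its SE of 0.11. Cyp4v3 had 13.1, 10.2 and 10.3 FPKM in control and 12.996, 8.71 and 11.4 in model samples. Cyp4f17 had means of 2.82 ± 0.57 and 3.13 ± 0.34 FPKM, and Cyp4f39, an enzyme of very long fatty acids, of 1.48 ± 0.54 and 1.0001 ± 0.23. Of Cyp4f39, 26.7% came from its own transcripts and the rest from an intronic fragment.

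Cyp4f6, of the subfamily that degrades leukotriene B4, had 5.14, 4.52 and 7.74 FPKM in control and 10.8, 6.35 and 11.1 in model samples. Model replicates 1 and 3 lay above all controls and model replicate 2 within their range. The difference was 0.61 (95% confidence interval −0.01 to 1.22) with an unadjusted p of 0.053 by limma. Among its transcripts, 2 assembled isoforms were listed at 0 in every control sample and in model replicate 2. They had 2.57 and 3.63 FPKM in model replicate 1, and 2.78 and 3.06 FPKM in model replicate 3. Model replicates 1 and 3 lay above all controls only with these isoforms included. Both isoforms run to position 15180906 of chromosome 7, beyond the annotated end of the gene at 15198940. Whether that stretch belongs to Cyp4f6 was not tested. The remaining members of subfamily 4f had lower levels than Cyp4f6. Among them, Cyp4f18 had 0.402, 0.714 and 0.660 FPKM in control and 1.26, 0.417 and 1.92 in model samples, which overlapped. Its difference was 0.41 with an unadjusted p of 0.17 by limma. An assembled isoform of it was listed at 0 in every control sample. Over the 10 members of family 4 tested 4 differences were above 0 and 6 below, with a median of −0.0238.

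Over all 32 members tested, 15 differences were above 0 and 17 below. Of these, 27 were under 0.3 in absolute size on the log2(FPKM + 1) scale. The median was −0.020, and that over all gene names was −0.007. This scale understates the change of low genes such as Cyp2d2.

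The genes that work with the P450 enzymes, from a list of 14 electron donors and regulators, were compared in the same fit. Of the 13 tested, 0 had an adjusted p below 0.05 by limma and 0 had an unadjusted p of at most 0.05, against 2.14% of all gene names higher and 2.77% lower in the model. Of the differences 2 were above 0 and 11 below, with a median of −0.154. Por had 37.8, 36.3 and 34.1 FPKM in control and 37.8, 34.5 and 49.3 in model samples. Cyb5r3, the reductase of cytochrome b5 and the most abundant of the list, had 70.9, 74.0 and 75.5 FPKM in control and 73.3, 25.7 and 72.5 in model samples, so that model replicate 2 alone was low.

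Of 13 other oxidation and conjugation enzymes tested, 0 had an adjusted p below 0.05 by limma, and 2 had an unadjusted p of at most 0.05, both lower in the model, against 2.77% of all gene names lower. Aox1, an aldehyde oxidase, had 6.37, 9.35 and 7.79 FPKM in control and 4.85, 4.48 and 3.74 in model samples, with a difference of −0.71 ± 0.16 (SE) and an unadjusted p of 0.0035 by limma (adjusted p 0.933). Fmo5, a flavin monooxygenase, had 5.71, 5.90 and 6.30 FPKM in control and 5.21, 4.75 and 3.70 in model samples, with an unadjusted p of 0.045 by limma (adjusted p 0.933). For both genes the groups did not overlap, as for 10.7% of all gene names. Over the 15 alternatives the unadjusted p of Aox1 by limma stayed at most 0.05 in 15 and that of Fmo5 in 5. The most abundant enzyme of the list, the carboxylesterase Ces1d, had means of 102.3 ± 24 and 100.8 ± 20 FPKM.

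Of 14 tested genes of the other P450 families, 0 had an adjusted p below 0.05 by limma and 1 had an unadjusted p of at most 0.05, against 4.91% of all gene names. It was Cyp7b1, a hydroxylase of oxysterols and the most abundant of them, with 34.9, 27.8 and 35.0 FPKM in control and 22.4, 28.8 and 25.2 in model samples with an unadjusted p of 0.038 by limma (adjusted p 0.933), and its groups overlapped. With annotated transcripts only its difference moved from −0.34 to −0.043, with an unadjusted p of 0.80 by limma. The other P450 families summed to 81.4 ± 6.6 FPKM in control and 73.2 ± 4.6 in model samples. With fragments included in all sums, this was below families 2 and 4.

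Markers of lung cells were read in the same fit. Of the 6 fibroblast and matrix genes, 1 had an unadjusted p of at most 0.05, against 4.91% of all gene names. The collagen gene Col3a1, the most abundant of them, had 174.0, 177.9 and 153.6 FPKM in control and 188.5, 203.8 and 232.5 in model samples, with an unadjusted p of 0.037 by limma (adjusted p 0.933). The matrix genes summed to 293.3 to 311.3 FPKM in control and 317.1 to 410.9 in model samples, without overlap. The differences of the 3 collagen genes were above 0 and those of Pdgfra, Dcn and Lum below 0. The alveolar type 2 genes summed to 4347 to 6046 FPKM in control and 5127 to 6664 in model samples, and all 7 differences were above 0 with none at an unadjusted p of at most 0.05. The differences of all 5 alveolar type 1 genes were above 0 and those of all 5 ciliated cell genes below 0, again with none at that p. The 3 endothelial genes summed to 206.0 ± 9.5 and 198.2 ± 24 FPKM, the 3 macrophage genes to 29.0 ± 10 and 32.3 ± 10, and the 2 erythroid genes to 427.0 ± 188 and 402.6 ± 173. The part of these cell types in the level of Cyp1a1 was not tested.

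Circular RNAs from the members were at the limit of detection. The circular RNA table held 1 back-splice read from Cyp4v3, in control replicate 2, and 2 reads from Cyp2e1, in model replicate 1, of 2037 to 2964 back-splice reads per library. Both lie under 3 counts, which a count of 0 still allows, and no comparison was possible.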

How the data were processed

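Whole-lung RNA of 3 control and 3 model rats was compared, as grouped per the labels. By the methods of the study, the authors removed adapters with Cutadapt and aligned reads by Bowtie2 and Tophat2. The processing notes of the deposit name HISAT2 as the aligner instead. The authors assembled and merged transcripts with StringTie, and deposited FPKM per transcript and the per-base coverage signal. Back-splice read counts, deposited by the authors, came from Tophat-fusion and CIRCexplorer. The genome build is not given in the sources used here. For this text, FPKM was summed over all rows of a gene name. Gene names above 0 in 3 or more samples were compared on log2(FPKM + 1) by limma 3.58.1 with trend in R 4.3.3, two-sided, with Benjamini-Hochberg adjustment. A call required an absolute log2 ratio of 1 or more and an unadjusted p no greater than 0.05. P-values by limma set the group difference against the spread between these animals, moderated by a trend over all gene names. Reads were estimated as coverage times length over a read length of 150 bases. The fit was tested on simulated data, and Python 3.11.15 handled the tables.

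Members and gene lists were chosen with earlier results of these data known. Named are members with a mean of at least 1 FPKM, with an unadjusted p of at most 0.05, or highest in their subfamily, 12 further listed members (Cyp1a1, Cyp1a2, Cyp1b1, Cyp2a3, Cyp2e1, Cyp2f4, Cyp2j4, Cyp2s1, Cyp3a9, Cyp3a62, Cyp4a8 and Cyp4b1), and in each list the most abundant gene, those with an unadjusted p of at most 0.05, and Scgb1a1, Por and Ahr. The remaining names, isoforms, fragments and the genes high in model replicate 3 were singled out after their values were seen. Alternatives were the pseudocount, filters, sums, TPM, upper quartile scaling, a replicate block and omission of single samples. Protein sequences were not analysed here.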

Additional observations from a re-analysis of the deposited data

How the results depend on the processing

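With 3 animals per group, precision is limited by the spread between animals, and no member had an adjusted p below 0.05 by limma in the 15 alternatives. Cyp1a1 kept its direction in all of them and an unadjusted p of at most 0.05 in 14 (p from 2.4e-05 to 0.60, adjusted p from 0.114 to 0.9999). When single samples were omitted its difference lay between −2.66 and −1.71. With annotated transcripts only it was −0.67, and the log2 ratio of family 1 moved from −2.11 to −1.20. In that setting 0 members had an unadjusted p of at most 0.05, with or without the fold threshold. The members with such a p were 2 with a pseudocount of 0.1 or a mean of at least 1 FPKM (Cyp1a1 and Cyp4f6), 2 with spliced matches only, a setting chosen after seeing the data (Cyp1a1 and Cyp2b2), and 3 with TPM, upper quartile scaling or a replicate block (Cyp1a1, Cyp2b2 and Cyp4f6). Without model replicate 2 they were 5 (Cyp2r1 and Cyp4f18 in addition), of which 3 also passed the fold threshold, without control replicate 1 they were 2 (Cyp1a1 and Cyp1b1), without control replicate 3 they were 2 (Cyp1a1 and Cyp4f6), and otherwise 1. Leaving out each sample gave 1 to 5 members by p and 1 to 3 by p and fold. Groups without overlap were counted for 1 member with a mean of at least 1 FPKM or with TPM, and for 3 to 8 with 1 sample left out, where fewer samples make overlap less likely. The cause of the other changes was not tested.

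Replicate numbers did not pair the samples: deviations of same-numbered samples from their group means correlated at 0.067, 0.028 and −0.087 over genes. Of the other named genes, Aox1 kept an unadjusted p of at most 0.05 by limma in 15 of 15 alternatives, Col3a1 in 8, Fmo5 in 5 and Cyp7b1 in 5. With annotated transcripts only that p was 0.117 for Fmo5 and 0.80 for Cyp7b1, with TPM 0.114 and 0.16, and with the replicate block 0.086 and 0.086, against 0.082 for Col3a1. With 1 sample left out, Fmo5 and Col3a1 kept it only without model replicate 1, and Cyp7b1 only without control replicate 2 or model replicate 2. With the replicate block, the count of members by p was 3 and that over all gene names 881, against 965 without it. Over all gene names, 84 were called by p and fold with a mean of at least 1 FPKM and 519 with annotated transcripts only, against 298, and calls by adjusted p were 7 with annotated transcripts only and 0 with the block, against 2. The median over all genes moved from −0.007 to 0.048 with TPM.

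Several members changed sign. With annotated transcripts only Cyp2b2 was −0.43, Cyp2c23 −0.012, Cyp2j4 0.18 and Cyp4f18 −0.17. With the sum weighted by length Cyp2j4 was 0.089 and Cyp4f18 −0.055, with spliced matches only Cyp2j4 was 0.18, with TPM Cyp2u1 was 0.049 and Cyp4v3 0.051, and with upper quartile scaling Cyp2u1 was 0.00071. With 1 sample left out, ranges that crossed 0 were −0.58 to 1.10 for Cyp2a3, −0.100 to 0.0051 for Cyp2ab1, −0.49 to 0.0067 for Cyp2b12, −0.19 to 0.16 for Cyp2c23, −0.29 to 0.45 for Cyp2c24, −0.18 to 0.066 for Cyp2d3, −0.11 to 0.014 for Cyp2d5, −0.013 to 0.22 for Cyp2e1, −0.26 to 0.45 for Cyp2f4, −0.049 to 0.18 for Cyp2t1, −0.13 to 0.046 for Cyp2u1, −0.022 to 0.21 for Cyp3a9, −0.035 to 0.13 for Cyp4b1 and −0.15 to 0.12 for Cyp4v3.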
